A study of Mus musculus with 54 samples.

Results

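The small intestine of germ-free mice, which carry no microbes, was compared with that of conventionalized mice, which are germ-free mice given a microbiota, in the messenger RNA of sorted crypt cells. The cells were Sox9-EGFP Low cells of C57BL/6J mice, sorted from intestinal crypts by the low fluorescence of EGFP, a green fluorescent protein that reports the gene Sox9. The members were the 4 germ-free and 4 conventionalized libraries of this sort, 8 of the 54 samples of the series, and the 20214 named genes with a mean of at least 10 normalized counts over the 8 libraries. The time since conventionalization, the age of the mice, the source of the microbiota and the construct behind the reporter are not stated in the labels. Nothing in the labels says whether the libraries of a group came from separate mice, so p-values measure the spread between libraries, which may be technical in part. A further 4 libraries of the same sort came from chow-fed C57BL/6J mice and are given as levels beside the others, with no test.

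Crypts are the pockets at the base of the intestinal lining in which stem cells divide and their daughters take on a fate. In the small intestine the transcription factor Sox9 is made at graded levels along this path, and cells with a low reporter signal are commonly used as a stem and progenitor population. Enteroendocrine cells, which release hormones when they sense food or microbial products, arise from the same crypts. Microbes are known to influence the renewal of the lining, its defence and its hormone cells.

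The libraries were read from values that the authors had normalized between libraries, called normalized counts below, and the size of a single read in each library gave an estimated depth of 6823602 to 12701486 reads in germ-free and 10436506 to 21681165 in conventionalized libraries. The epithelial markers summed to 133993 to 166030 normalized counts in germ-free libraries and to 124803 to 243992 in conventionalized ones, so the ranges overlapped. The 25 enteroendocrine markers (hormones, granule proteins and their transcription factors) summed to 1425740, 788944, 988060 and 661116 normalized counts in germ-free replicates 1 to 4 and to 208319, 150794, 339143 and 362653 in the conventionalized ones, with no overlap. All 25 were higher in germ-free mice, 13 passed the test, and their median difference was 1.91 on the log2 scale. The stromal and endothelial markers were also higher: 9 of 13 were abundant enough to test, all 9 were higher and 1 (Pecam1) passed, and their sum was 1231 to 2137 normalized counts in germ-free and 397 to 811 in conventionalized libraries. Vim, an intermediate filament gene listed as a stromal marker, stood at 1737, 1035, 1047 and 363 normalized counts in germ-free libraries and at 254, 275, 342 and 404 in conventionalized ones. Col1a1, which marks fibroblasts, stood at 3.95, 3.24, 26.8 and 176 and at 0, 29.4, 6.07 and 0.49, and germ-free replicate 4 held its highest value. Vim thus made up much of the stromal sum in germ-free replicates 1 to 3, but 363 of 1231 in germ-free replicate 4. The 9 tested markers had a median difference of 1.73 on the log2 scale, so the rise was not in Vim alone. In the wild-type single cells described below, Vim was highest in cells with enteroendocrine markers, above dividing cells, cells with enterocyte markers and the remaining cells outside the lymphocytes. The stromal sum is therefore not a measure of stromal RNA alone, and which cells its rise came from was not tested. In bulk samples, fewer cells of a type and less RNA per cell cannot be told apart.

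A gene was called where the limma test across all genes gave a Benjamini-Hochberg adjusted p under 0.05. By this rule 453 genes differed, 394 higher in germ-free mice (1.95% of the genes tested) and 59 lower (0.292%). In 451 of the 453 the 4 germ-free values did not overlap the 4 conventionalized ones. Over all genes, every germ-free value was above every conventionalized one in 6.26% and below in 6.21%. At an unadjusted p under 0.05 the directions were balanced, with 1983 genes higher (9.81%) and 2089 lower (10.3%). The adjusted p-values of the called genes ran from 0.0129 up to the threshold, with a median of 0.0267. The number of calls changed with single libraries. Without germ-free replicate 1, 0 genes were called higher and 1 lower, and without each of the other libraries in turn 132 to 455 were called higher and 7 to 229 lower. All 453 differences kept their sign without germ-free replicate 1, and the loss of calls there includes all 100 called genes that the rule for named genes picks. Without the trend between spread and level that the test assumes, 0 genes were called in either direction.

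**Figure D1:**
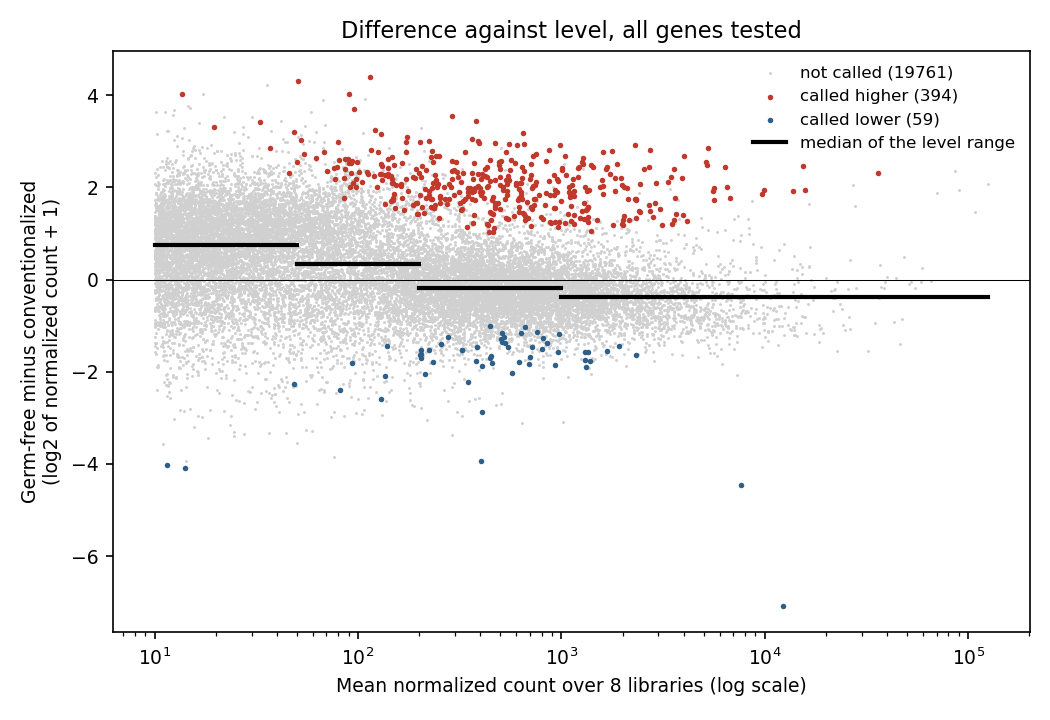
Difference between germ-free and conventionalized libraries on the log2(normalized count + 1) scale against the mean normalized count on a log axis, 1 point a gene, red where called higher (394), blue where called lower (59). Black lines are the medians of 4 level ranges, from 0.76 for means of 10 to 50 down to -0.37 for means of at least 1000.

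Differences varied with the level of a gene. Each is the germ-free minus the conventionalized mean of log2(normalized count + 1), and every rise, fall or value in brackets below is on that scale. The median difference over all genes was 0.11 on the log2 scale, but it was 0.76 over the 7174 genes with a mean of 10 to 50 normalized counts, 0.33 from 50 to 200, -0.19 from 200 to 1000 and -0.37 over the 2886 genes at 1000 or more, as the plot of difference against level shows. Most calls lay well above the low range: 199 of the 394 higher calls had means from 200 to 1000 and 6 had means under 50. The depths given above overlapped between the groups, with the lowest in germ-free replicate 3 and the highest in conventionalized replicate 4, and the part of depth in this pattern was not tested. The medians of low-abundance families below are to be read against the median of their level.

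The largest rises among called genes, leaving out the enteroendocrine markers, Reg genes, gene models with no proper name, Chd5 and Diras2, were in Tmem200a, Cpb2, Pcp4l1, Lrrn1, Cpne8, Cldn1, Mfsd4b1, Plk5, Dgkh and Hcar1. Pcp4l1 (chromosome 1, 171173262 to 171196268 in GRCm38), which encodes a small relative of the calmodulin regulator PCP4, stood at 546, 351, 661 and 535 normalized counts in germ-free replicates 1 to 4 and at 34.2, 13.9, 96.7 and 71.4 in the conventionalized ones. The groups did not overlap, and the difference was 3.54 on the log2 scale with a standard error of 0.53 (limma adjusted p = 0.0129). Tmem200a (chromosome 10, 25912331 to 26079052), a membrane protein gene, had the largest rise of these, 4.02 (standard error 0.95, limma adjusted p = 0.0477), from 12.0, 0, 22.7 and 18.9 in conventionalized to 124, 57.4, 277 and 208 in germ-free libraries. Cldn1 (chromosome 16, 26356642 to 26371841), a claudin that seals tight junctions, rose by 3.31 from values of 1.71, 1.07, 3.58 and 4.37, which are a few reads each, and it passed in 0 of the 8 fits that each left out a library. Plk5 (chromosome 10, 80356459 to 80365489), a polo-like kinase family member, stood at 1365, 561, 1867 and 826 in germ-free and 127, 28.4, 229 and 199 in conventionalized libraries and rose by 3.18.

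Several genes that let a cell sense hormones, nutrients and metabolites rose. Of 26 tested receptors and sensory channels, a list put together after the values were seen, 11 were called higher and 0 lower, against 1.95% and 0.292% of all genes. Glp1r (chromosome 17, 30901817 to 30940791), the receptor for the incretin GLP-1, stood at 350.1, 299, 1202 and 768 normalized counts in germ-free replicates 1 to 4 and at 121, 35.2, 91.9 and 49.5 in the conventionalized ones. All germ-free values were above all conventionalized ones, with a difference of 3.05 on the log2 scale (standard error 0.51, limma adjusted p = 0.0129). Hcar1 (chromosome 5, 123876736 to 123880020), the lactate receptor, rose by 3.09 and Ffar2 (chromosome 7, 30818348 to 30823775), a receptor for short-chain fatty acids, which are microbial fermentation products, rose by 2.06. Ffar2 stood at 3613, 2673, 4233 and 2116 in germ-free libraries against 772, 306, 1242 and 972 in conventionalized ones. Among inhibitory receptors, the somatostatin receptors Sstr1 and Sstr5 rose by 2.61 and 2.51, the galanin receptor Galr1 by 2.50 and the neuropeptide Y receptor Npy1r by 2.27. Sstr5 stood at 2201, 1195, 3767 and 1561 in germ-free libraries and at 234, 259, 457 and 522 in conventionalized ones. The irritant channel Trpa1 rose by 2.55, the cation channel Trpm2 by 2.79 and the adenosine receptor Adora2a by 2.46. The glucagon receptor Gcgr and the lipid sensor Gpr119 did not pass the test, with limma adjusted p-values of 0.0973 and 0.0578. The enteroendocrine marker sums given above moved with these genes, and their part in the result was not tested.

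**Figure D2:**
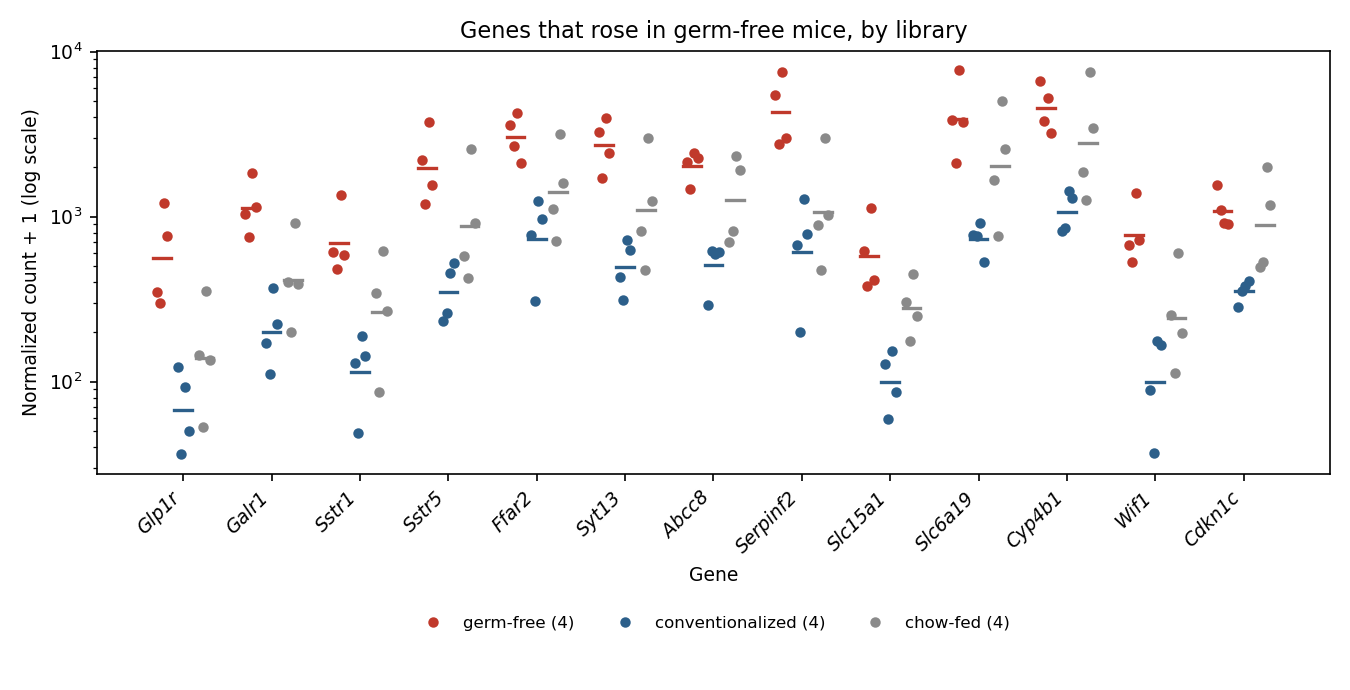
Normalized counts plus 1, on a log axis, of 13 genes that rose in germ-free mice, in each germ-free (red), conventionalized (blue) and chow-fed (grey) library, with bars at the geometric means of the plotted values. Germ-free points lie above all conventionalized points for each gene, and chow-fed points spread from the conventionalized range toward or into the germ-free one.

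Some ion channel genes and genes of regulated release rose. The enteroendocrine marker sums, 661116 to 1425740 normalized counts in germ-free and 150794 to 362653 in conventionalized libraries, moved with them, and their part in these rises was not tested. Enteric glia and neuron markers, among them Snap25, moved with them as well. These summed to 1708 to 4190 in germ-free and 478 to 1005 in conventionalized libraries. Of 9 such markers tested, 8 were higher and 1 was called, and their part was not tested either. Of 68 tested potassium channel genes 5 were called higher (Kcnt1, Kcnb2, Kcnk16, Kcnh3 and Kcnh6) and 0 lower, against 1.95% of all genes called higher. A positive difference was found for 52, and the median was 1.06. The family's median level was 45.3 normalized counts, in a range where all genes had a median of 0.76. Kcnb2 (chromosome 1, 15287254 to 15723750), a delayed rectifier, stood at 633, 370.1, 1384 and 1010 in germ-free libraries and at 105, 108, 232 and 159 in conventionalized ones, a difference of 2.40 (standard error 0.41, limma adjusted p = 0.0139). Abcc8 (chromosome 7, 46104523 to 46180033), the sulfonylurea receptor of the ATP-sensitive potassium channel, stood at 2145, 1472, 2422 and 2271 against 292, 622, 597 and 611 and rose by 2.01. Of 19 calcium channel subunit genes Cacna2d1 (2.00) and Cacnb3 (1.32) were called higher, and of 12 sodium channel genes Scn3a (2.95). Scn3a stood at 555, 902, 1658 and 702 in germ-free and 76.5, 119.6, 338 and 50.8 in conventionalized libraries. Synaptotagmins are the calcium sensors of vesicle release: of 13 tested, Syt13 (2.45), Syt5 (2.42) and Syt7 (2.10) were called higher. The 1.95% of all genes called higher is the background for each of these families. Syt13 stood at 3282, 1716, 3977 and 2421 in germ-free libraries and at 429.8, 312, 719 and 629 in conventionalized ones, with no overlap. The vesicular monoamine transporter Slc18a1 (2.55), the kinesin Kif1a (2.01), a motor for vesicle transport, and the release protein Snap25 (2.39) rose as well. Of 35 GABA, glycine and glutamate receptor subunits and 47 protocadherins 0 were called. At an unadjusted limma p under 0.05, 4 and 12 were higher and 0 lower, against 9.81% of all genes higher. The receptor subunit count is thus near the background. The median levels of these families were 31.2 and 32.2 normalized counts, in the range where all genes had a median of 0.76. Of 59 adhesion and orphan G protein-coupled receptors 5 were called higher, led by Adgrd1 (2.93), Adgrf5 (2.76) and Gpr155 (2.65).

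Several genes of plasma proteins usually made by the liver rose. The list was drawn up after the values were seen: of 26 tested, 15 were called higher and 0 lower, against 1.95% and 0.292% of all genes. The enteroendocrine marker sums moved with these genes too (661116 to 1425740 normalized counts in germ-free, 150794 to 362653 in conventionalized libraries), and their part in the result was not tested. Serpinf2 (chromosome 11, 75431732 to 75439591), which encodes the plasmin inhibitor, stood at 5436, 2776, 7566 and 3013 normalized counts in germ-free replicates 1 to 4 and at 675, 199, 1288 and 787 in the conventionalized ones. It rose by 2.82 with a standard error of 0.50 (limma adjusted p = 0.0158). Ambp, the precursor of alpha-1-microglobulin and bikunin, rose by 2.49 from 1153, 657, 2783 and 2075 to 12061, 5531, 11592 and 5681. F2, prothrombin, rose by 2.39, Trf, transferrin, by 1.84, Rbp4, the carrier of retinol, by 1.53, Selenop, the selenium carrier, by 1.86, and Crp, C-reactive protein, by 2.25. The 5 Serpina1 genes, which encode alpha-1-antitrypsin and are near-identical copies between which reads may be split, were called higher with differences of 1.86 to 2.86. Alb, albumin, the most abundant liver product, did not pass the test (0.47, adjusted p = 0.712), nor did Ttr, transthyretin (1.10, adjusted p = 0.0831).

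Absorptive and detoxifying genes were divided. Over all genes 1.95% were called higher and 0.292% lower. Of the 12 enterocyte markers 3 had positive and 9 negative differences, and 1 (Sis) was called. Their median was -0.47, and it ran from -0.85 to 0.34 without each library in turn. Of 27 brush border and digestive genes 4 were called higher, Slc15a1 (2.53), the peptide transporter, Slc6a19 (2.41), a neutral amino acid transporter, Sis (2.02), sucrase-isomaltase, and Krt20 (1.92), a keratin of differentiated cells. Slc15a1 (chromosome 14, 121459621 to 121505252) stood at 620.0, 381, 1130 and 410.2 in germ-free libraries and at 126, 58.7, 152 and 85.2 in conventionalized ones, with no overlap. The other 23 were not called and the median of the list was 0.02, with 14 positive and 13 negative differences as deposited and 11 positive ones and a median of -0.08 after median-of-ratios scaling. Lactase (Lct) stood at 200.4, 15.4, 29.4 and 0 in germ-free and 300.3, 29.1, 115 and 39.7 in conventionalized libraries, so the groups overlapped. Fat absorption genes gave 0 calls among 23, with 1 at an unadjusted limma p under 0.05 in each direction. These shares are below the 9.81% higher and 10.3% lower of all genes. Apoa1, the main lipoprotein of the list, stood at 19658, 5972, 7750 and 4386 against 13276, 1088, 4684 and 4036. Of 47 cytochrome P450 genes, which oxidize drugs, bile acids and fatty acids, 4 were called higher: Cyp3a11 (2.54), Cyp4b1 (2.10), Cyp2c68 and Cyp2c65 (1.65). Cyp4b1 (chromosome 4, 115624725 to 115647723) stood at 6657, 3827, 5265 and 3218 normalized counts in germ-free libraries and at 817, 854, 1428 and 1291 in conventionalized ones, a difference of 2.10 (standard error 0.30, limma adjusted p = 0.0129). The conjugating enzyme Ugt1a9 rose by 1.98; it shares its last exons with the other Ugt1a genes, so its reads may be split among them. The lipoprotein receptor Scarb1, which takes up cholesterol, rose by 1.81 and was the 1 call among 31 cholesterol genes, a count near the background.

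Solute carriers, which move nutrients and ions across membranes, counted 11 called higher and 1 lower among 274 tested, with a median of 0.14. Over all genes 1.95% were called higher and 0.292% lower, so the count of falls is near the background. Beside the transporters above, Slc38a11 (2.69), Slc4a8 (2.67), a bicarbonate transporter, and Slc8a1 (2.60), the sodium-calcium exchanger, rose. Slc38a11 stood at 1645, 1126, 3120 and 1285 in germ-free libraries and at 196, 147, 575 and 257 in conventionalized ones. Slc28a2 (chromosome 2, 122426477 to 122461137), which takes up purine nucleosides, was the 1 member that fell. It stood at 101, 155, 131 and 101 in germ-free libraries and at 397, 638, 601 and 643 in conventionalized ones, a difference of -2.21 (standard error 0.29, limma adjusted p = 0.0129), and it passed in 7 of the 8 fits that each left out a library.

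Signals that set cell fate changed in single members rather than as whole pathways. Over all genes 1.95% were called higher and 0.292% lower, which is the background for each count below. In the Notch pathway, through which neighbouring cells restrain each other from secretory fates, 3 of 27 tested genes were called higher: the ligand Dll4 (1.38), Mfng (2.39), a sugar transferase that modifies Notch receptors, and Dlk1 (2.29), a non-canonical ligand. Dll4 (chromosome 2, 119325784 to 119335962) stood at 860.5, 703, 1316 and 537 in germ-free and 411, 268, 254 and 334 in conventionalized libraries. The Notch target genes Hes1 (-1.74, limma adjusted p = 0.17) and Hes5 (-3.44, limma adjusted p = 0.0936) were below all conventionalized values in every germ-free library but were not called. In the BMP pathway, which favours differentiation, the ligand Bmp4 (2.77), the target Id2 (1.49) and the procollagen protease Bmp1 (1.44) were called higher among 24 genes. The wild-type single cells described below gave 1 molecule of Bmp4 and 0 of Dlk1 outside the lymphocytes. Id2 (chromosome 12, 25093799 to 25097140) stood at 4601, 2770, 3818 and 2841 against 1212, 661, 1569 and 1739. Secreted inhibitors were listed after the values were seen: Wif1 (2.96), which binds Wnt ligands, and Lefty1 (1.42), a nodal antagonist, were called higher among 10 tested. Wif1 (chromosome 10, 121033960 to 121100650) stood at 669.8, 531, 1391 and 721 in germ-free libraries and at 88.4, 36.1, 176 and 165 in conventionalized ones. Of 33 collagens Col6a5 (2.98) and Col8a1 (2.61) were called higher, and of 29 semaphorins, plexins and neuropilins Nrp1 (1.75) and Sema3f (1.55). The part of stromal RNA in these was not tested. The stromal marker values are given above. Outside germ-free replicate 4 much of their sum is Vim, which is not a measure of stromal RNA alone. The enteroendocrine marker sums also moved with the called genes of these lists (661116 to 1425740 normalized counts in germ-free, 150794 to 362653 in conventionalized libraries). Their part in the result was not tested.

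Wild-type single cells of the same series show where these genes are found. The cells came from small intestine of mice 12 months old in 2 sets, with 1197 and 3363 cells kept, and no barcode was shared between the sets. Cells with at least 3 enteroendocrine markers that made up at least 1% of their molecules numbered 26 and 38, and cells with both Mki67 and Top2a, which mark division, numbered 347 and 473. Over the 10942 tested genes with enough molecules in both sets, 110 (1.01%) were at least 4-fold higher in the enteroendocrine gate than in dividing cells, in cells with enterocyte markers and in the remaining cells outside the lymphocytes, in both sets. All 110 had a positive difference between germ-free and conventionalized mice and 70 of them (63.6%) were called higher. The 110 include markers that define the gate, and 57 of the 70 were not such markers. Of 381 genes called higher that are not markers behind the gate, 202 had enough molecules and a symbol of their own. The others could not be placed. Of these 202, 57 (28.2%) were among the 110, against 0.375% of the genes not called and 0 of the 53 measured genes called lower. These shares describe 2 libraries with few cells in the gate, and doublets were not removed.

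Individual genes fell into several patterns in these cells, given as CPM of the UMIs (single molecules) summed over a gate in sets 1 and 2. Rbp4 stood at 716 and 519 in the enteroendocrine gate and at 0.36 and 0 in cells with enterocyte markers. Cdkn1c stood at 288 and 938 and 2.16 and 1.72 in the same gates, Cacna2d1 at 90.5 and 266 and 0.36 and 0, and Galr1 at 14.7 and 68.5 and 0 and 0. The absorptive and detoxifying genes were divided. Slc15a1 stood at 17.1 and 38.0 in the enteroendocrine gate and at 86.0 and 113 in the enterocyte gate, and Cyp3a11 at 4.89 and 0 and 88.9 and 64.7. Slc6a19 was high in both gates, at 90.5 and 140.7 and 142 and 170.9. Cyp4b1 stood at 75.8 and 106.5 and 61.1 and 52.2, and Scarb1 at 39.1 and 53.25 and 0.721 and 0.101, higher in the enteroendocrine gate in both sets. Vim, the main stromal marker by level, stood at 164 and 268 in the enteroendocrine gate and at 0.721 and 0.808 in the enterocyte gate. Glp1r and Wif1 gave at most 2 molecules in each gate and set, so their place could not be read at this depth. The same holds for Bmp4, with 1 molecule in the remaining cells of set 2, and for Dlk1, with 0.

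**Figure D3:**
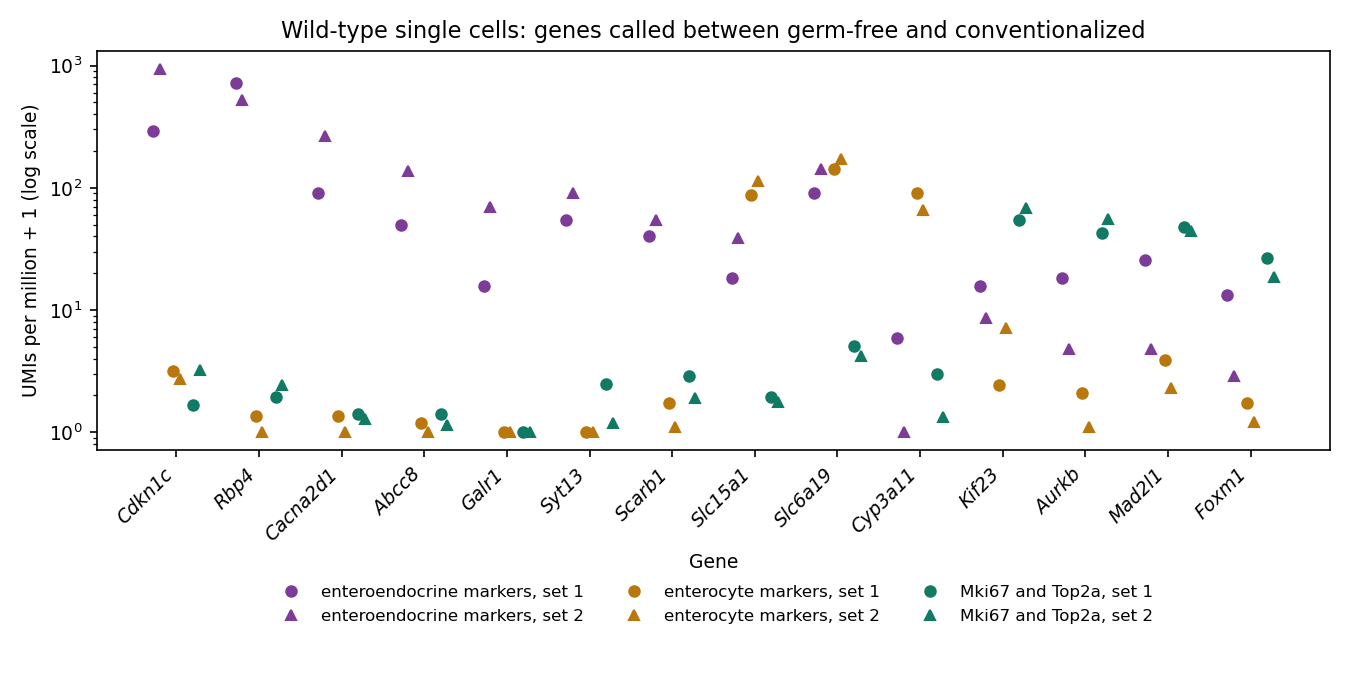
CPM of UMIs plus 1, on a log axis, of 14 genes called between germ-free and conventionalized mice, summed over wild-type single cells with enteroendocrine markers (purple), enterocyte markers (brown) or both Mki67 and Top2a (green), in set 1 (circles) and set 2 (triangles). Cdkn1c to Scarb1 stand highest in the enteroendocrine gate, Slc15a1 and Cyp3a11 in the enterocyte gate, Slc6a19 in both of these, and Kif23 to Foxm1 in the dividing cells.

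Genes of cell division were lower in germ-free mice. Of 40 tested genes of mitosis 9 fell and 0 rose, against 0.292% of all genes called lower, all 40 had a negative difference and the median was -1.54 on the log2 scale. At an unadjusted p 37 of the 40 were under 0.05 in that direction, and in 29 every germ-free value was below every conventionalized one, against 6.21% of all genes. The 9 were Kif23, Aurkb, Mad2l1, Cdk1, Plk1, Cenpf, Ttk, Cdc20 and Mki67. Kif23 (chromosome 9, 61915905 to 61946774), a motor that builds the midbody between daughter cells, stood at 244, 377, 86.1 and 292 normalized counts in germ-free replicates 1 to 4 and at 815, 974, 831 and 978 in the conventionalized ones. Germ-free replicate 3 was the lowest, the other germ-free libraries were still below all conventionalized ones, and the difference was -2.03 (standard error 0.39, limma adjusted p = 0.0216). Cdk1 (chromosome 10, 69335146 to 69352938), the kinase that starts mitosis, stood at 599, 1425, 242 and 611 against 2123, 1682, 2222 and 2197 and fell by 1.77. Aurkb (chromosome 11, 69045647 to 69051664), the kinase that corrects chromosome attachment, fell by 1.89 from 1662, 1856, 2120 and 2451 to 580.3, 944, 187 and 821. Plk1, a mitotic kinase, fell by 1.74, Mad2l1, of the spindle checkpoint, by 1.83, Cdc20, which starts chromosome separation, by 1.63, and Mki67, the usual marker of dividing cells, went from 627, 1776, 1333 and 1027 to 285, 492, 316 and 535. Outside the list, Ska3 (-2.04), which ties spindle fibres to chromosomes, and the mitotic kinesins Kif18b (-1.87) and Kif2c (-1.24) fell. The list kept a negative median without each library in turn, from -1.77 to -1.04, but its calls fell to 0 without germ-free replicate 1, to 0 without conventionalized replicate 2 or 4, to 1 without conventionalized replicate 1 or 3, and to 1 after quantile normalization. In the wild-type single cells, 25 of 52 genes called lower (48.1%, Mki67 and Top2a left out) were at least 2-fold higher in dividing cells than in cells with enterocyte markers in both sets, against 7.43% of all genes. The enteroendocrine marker sums also moved with these falls, in the other direction, and their part was not tested.

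Promoters of some called genes are shown, picked because they carry short elements known to bind regulators of late cell cycle genes. They are RefSeq sequences of GRCm38.p6 from 120 bases before to 30 after the start site, 5′ to 3′ on the gene's strand, with capitals at TTTGAA (the cell cycle homology region, or CHR), at CCAAT, at the E2F elements TTTCCCGC and TTTGGCGC, and at the reverse complements of each. Kif23 lies at chr9:61946770-61946919 on the minus strand, Cdk1 at chr10:69352883-69353032 (minus), Ttk at chr9:83834569-83834718 (plus) and Cdc20 at chr4:118437314-118437463 (minus). Mcm6 at chr1:128359676-128359825 (minus) and Gins3 at chr8:95633439-95633588 (plus), of the DNA replication list, are shown beside them for their E2F elements. Neither Mcm6 nor Gins3 was called. Some called mitosis genes lacked elements in this window: Mad2l1 had none of those marked, Plk1 no TTTGAA and Mki67 no CCAAT.
Kif23: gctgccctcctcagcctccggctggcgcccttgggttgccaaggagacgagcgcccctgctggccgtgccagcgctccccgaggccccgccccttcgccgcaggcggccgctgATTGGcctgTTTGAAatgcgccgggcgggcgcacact
Cdk1: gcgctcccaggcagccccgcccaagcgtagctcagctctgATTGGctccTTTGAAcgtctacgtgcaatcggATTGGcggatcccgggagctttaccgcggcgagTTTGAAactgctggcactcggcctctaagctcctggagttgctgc
Ttk: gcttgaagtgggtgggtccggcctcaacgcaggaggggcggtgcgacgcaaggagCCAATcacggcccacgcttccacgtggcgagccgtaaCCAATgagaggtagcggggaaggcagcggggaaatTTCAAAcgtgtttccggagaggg
Cdc20: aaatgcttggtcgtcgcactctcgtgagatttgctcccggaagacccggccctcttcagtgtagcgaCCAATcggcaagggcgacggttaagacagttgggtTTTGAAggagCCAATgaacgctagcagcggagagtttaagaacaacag
Mcm6: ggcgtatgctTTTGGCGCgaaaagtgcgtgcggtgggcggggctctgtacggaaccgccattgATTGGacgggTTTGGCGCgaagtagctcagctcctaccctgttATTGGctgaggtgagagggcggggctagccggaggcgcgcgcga
Gins3: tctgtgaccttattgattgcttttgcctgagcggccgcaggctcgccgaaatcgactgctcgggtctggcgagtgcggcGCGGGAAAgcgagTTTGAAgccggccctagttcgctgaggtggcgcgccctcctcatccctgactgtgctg
The search covered 250 bases before to 50 after the start, on both strands. TTTGAA was in 26 of 34 promoters of the mitosis list (76.5%), in 5 of 40 of the DNA replication list (12.5%) and in 17.9% of all 32851 promoters of that length. CCAAT was in 76.5%, 57.5% and 37.4% of the same sets, and both together were in 64.7%, 7.5% and 6.95%. The E2F elements were in 3 of 34 mitosis promoters (8.82%), 11 of 40 replication promoters (27.5%) and 1.56% of all. Of the 41 mitosis and 44 replication genes listed, 33 and 35 had a promoter in the table, and a match of letters describes the sequence only. Each motif was counted on its own, also where neighbouring matches share bases.

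**Figure D4:**
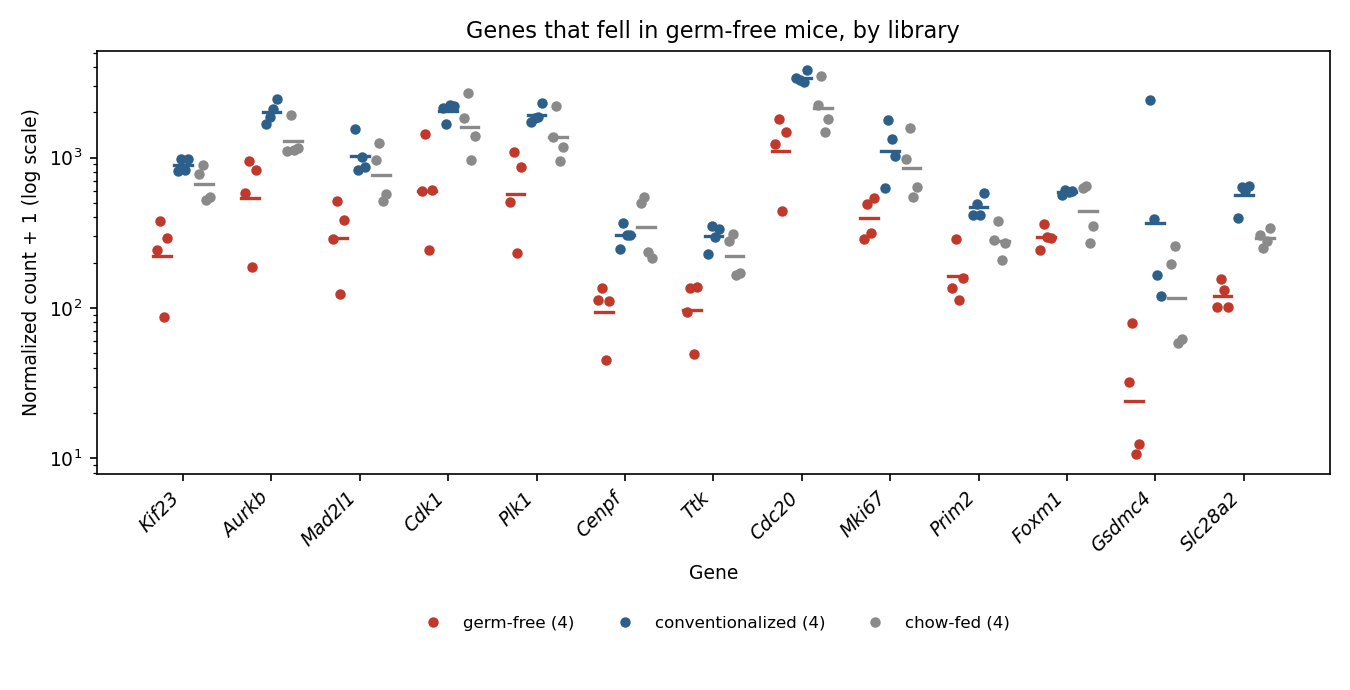
Normalized counts plus 1, on a log axis, of 13 genes that fell in germ-free mice, in each germ-free (red), conventionalized (blue) and chow-fed (grey) library, with bars at the geometric means of the plotted values. All germ-free points lie below the conventionalized points of the same gene, and chow-fed points lie mostly between the groups or among the conventionalized ones.

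Genes of DNA replication, ribosomes and respiration had negative differences with 1 call in all. Over all genes 10.3% were lower at an unadjusted limma p under 0.05. Of 44 DNA replication genes, Prim2 (-1.53), a primase subunit, was the 1 called, all 44 differences were negative (all but 1 after quantile normalization) with a median of -1.16, and 40 were at an unadjusted limma p under 0.05. Pcna, the sliding clamp of the polymerase, stood at 1790, 2785, 595 and 1621 in germ-free and 3256, 2912, 2926 and 4050 in conventionalized libraries (limma adjusted p = 0.16). Among 31 cell cycle regulators, the inhibitors Cdkn1c (1.63) and Cdkn1a (1.42) rose and Foxm1, a transcription factor of mitotic genes, fell. In the wild-type single cells, Cdkn1a stood at 1066 and 757 CPM in the enteroendocrine gate and at 46.1 and 55.4 in dividing cells. Cdkn1c stood at 288.5 and 938 and at 0.67 and 2.23 in the same gates. The enteroendocrine marker sums moved with the rises of both inhibitors, and their part was not tested. Cdkn1c (chromosome 7, 143458339 to 143461050), which encodes p57, stood at 1547, 1095, 919.6 and 897 in germ-free libraries and at 282, 352, 382 and 404 in conventionalized ones, and Foxm1 (chromosome 6, 128362967 to 128376146) at 242, 362, 294 and 290.2 against 559.9, 610.4, 592 and 599. Cdkn1c passed in 7 of the 8 fits that each left out a library and Foxm1 in 1. Cytosolic ribosomal protein genes gave 0 calls among 75, with all 75 differences negative, a median of -0.98 and 47 at an unadjusted limma p under 0.05. Their sum was 448154, 543256, 123105 and 400735 normalized counts in germ-free replicates 1 to 4 and 641065, 492635, 615983 and 927960 in the conventionalized ones, so the groups overlapped and germ-free replicate 3 stood apart. Nuclear genes of the respiratory chain gave 0 calls among 30 with a median of -0.84, and ribosome biogenesis genes 0 among 32 with a median of -0.76; 16 of each were at an unadjusted limma p under 0.05. These lists are of abundant genes, and the median of all genes at 1000 or more normalized counts was -0.37.

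**Figure D5:**
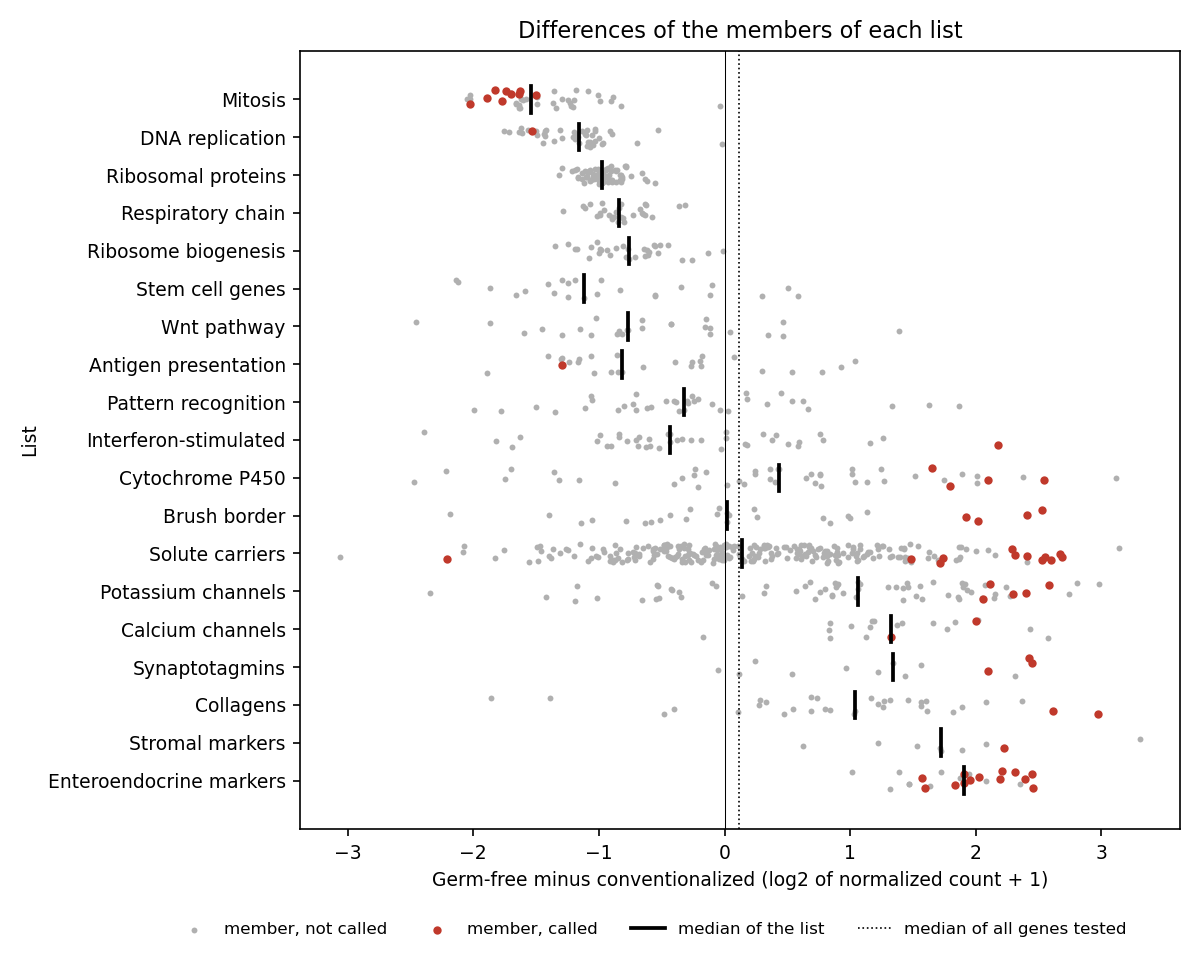
Difference between germ-free and conventionalized libraries on the log2(normalized count + 1) scale for each tested member of 19 lists (1 point a gene, red where called), with the list's median (black bar) and the median of all genes tested, 0.11 (dotted). Mitosis (median -1.54) and DNA replication (-1.16) lie wholly to the left, enteroendocrine markers (1.91) wholly to the right, and most other lists hold both signs.

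Stem cell and Wnt genes gave no call, and most had negative differences. The background at an unadjusted limma p under 0.05 is 9.81% of all genes higher and 10.3% lower. Of 23 intestinal stem cell genes 0 were called, 20 had a negative difference, the median was -1.12 and 15 were at an unadjusted limma p under 0.05. Lgr5, a receptor that marks crypt base stem cells, stood at 859, 1478, 378 and 729.7 in germ-free and 976, 5167, 3819 and 3233 in conventionalized libraries, where conventionalized replicate 1 lay within the germ-free range (difference -1.87, limma adjusted p = 0.0815). Olfm4, a stem cell marker, stood at 27033, 48025, 6865 and 31728 against 38538, 73094, 60794 and 81897, also with overlap (limma adjusted p = 0.215). Sox9, the gene behind the sort, stood at 4435, 3602, 2146 and 3406 against 3098, 5019, 5295 and 6672, and the groups overlapped (difference -0.56, limma adjusted p = 0.316). Of 27 Wnt pathway genes 0 were called, with a median of -0.77 and 10 lower at an unadjusted limma p under 0.05, among them the targets Axin2 (-0.84) and Ascl2 (-1.29). The ligand Wnt3 had a positive difference of 1.39 (limma adjusted p = 0.101). CTTTGAT, a core of the TCF/LEF site, which shares the run TTTGA with the CHR, was found on either strand in 3 of 30 promoters of this list (10%) and in 3.73% of all. Of 22 ErbB genes 0 were called, with 5 higher and 2 lower at an unadjusted limma p under 0.05, of which the lower count is near the background.

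Genes of microbial sensing and immunity gave few calls. Over all genes 1.95% were called higher and 0.292% lower, and at an unadjusted limma p under 0.05, 9.81% were higher and 10.3% lower. Of 37 pattern recognition and NF-kappaB genes 0 were called, with 0 higher and 8 lower at an unadjusted limma p under 0.05. Cd14, the co-receptor for lipopolysaccharide, stood at 94.8, 198, 31.3 and 53.7 in germ-free libraries and at 271, 254, 282 and 433 in conventionalized ones, below in all 4 (limma adjusted p = 0.0621). Casp4, the cytosolic sensor of lipopolysaccharide, differed by -1.78 (limma adjusted p = 0.0556) and the inflammasome receptor Nlrp6 by -1.35 (limma adjusted p = 0.0939), with no overlap in either. Of 25 antimicrobial and barrier genes outside the Reg3 genes, Duox2 (chromosome 2, 122279247 to 122298449), an epithelial hydrogen peroxide source, was the 1 that fell. It stood at 40.7, 91.9, 30.5 and 10.4 in germ-free and 318, 221, 138 and 182 in conventionalized libraries. Of 27 antigen presentation genes Tap1 (-1.29), the peptide transporter, fell from 1025, 489, 510.5 and 894 to 266, 348, 301 and 226. Of 42 interferon-stimulated genes Usp18 (2.18), which removes ISG15 from proteins, rose and 0 fell, and the list's median was -0.43. Usp18 (chromosome 6, 121245906 to 121270917) stood at 1425, 759, 1420 and 987 in germ-free libraries and at 244, 196, 288 and 258 in conventionalized ones, and in the single cells at 48.9 and 45.6 CPM in the enteroendocrine gate and 7.93 and 3.84 in the enterocyte gate. The GTPase Gbp8 rose by 2.33. Cytokine genes and the IL-22 response list gave 0 calls among 25 and 22. At an unadjusted limma p under 0.05 the cytokine list had 0 higher and 8 lower. The IL-22 list had 2 higher and 3 lower, near the background.

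Gasdermins, which form membrane pores, split in direction in a list drawn up after the values were seen. Gsdmc4 (chromosome 15, 63891264 to 63912297) stood at 31.3, 78.2, 9.59 and 11.4 normalized counts in germ-free replicates 1 to 4 and at 2411, 389, 165 and 119 in the conventionalized ones. It fell by 3.94 with a standard error of 0.89 (limma adjusted p = 0.0393), and conventionalized replicate 1 held the highest value by far. Its neighbours Gsdmc2 (-2.79) and Gsdmc3 (-1.74) had overlapping groups and were not called, and reads may be split among these close copies. Gsdma rose by 2.44 and Gsdme by 1.58. Other large falls were in Bricd5 (-4.01), at 0, 2.64, 0 and 0 in germ-free libraries, in Syne4 (-2.87), which ties the nucleus to the cytoskeleton, in S100g (-2.10), the intestinal calcium carrier calbindin-D9k, and in Cd38 (-1.85), an enzyme that breaks down NAD. S100g (chromosome X, 162961992 to 162964599) stood between 26.6 and 70.0 in germ-free libraries and at 237, 107, 296 and 242 in conventionalized ones, and Cd38 (chromosome 5, 43868553 to 43912375) at 416, 757, 173 and 389.8 against 2047, 1271, 1097 and 1268.

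Other programmes gave single calls or none. Over all genes 1.95% were called higher and 0.292% lower, so a single call in a list is near the background. At an unadjusted limma p under 0.05 the shares of all genes were 9.81% higher and 10.3% lower. The clock gene Cry2 rose by 1.76, the 1 call among 22, and the nucleotide enzyme Impdh1 by 1.23, the 1 among 29. The unfolded protein response and the immediate early and heat shock list, which would show handling of the cells, gave 0 calls among 29 and 28. At an unadjusted limma p under 0.05 the first list had 2 higher and 0 lower, and the second 4 higher and 1 lower. Dusp1, an early response gene, stood at 10022, 7551, 20923 and 13168 in germ-free and 3559, 1249, 5281 and 7856 in conventionalized libraries (limma adjusted p = 0.111). Of 30 fatty acid oxidation genes 0 were called, with 2 higher and 6 lower at an unadjusted limma p under 0.05. Of 342 zinc finger genes named Zfp, Zfp710 (1.03) was called higher, a smaller share than over all genes. Paneth cell markers gave 0 calls among 11, with 10 negative differences, a median of -0.82 and 5 lower at an unadjusted limma p under 0.05 (10.3% of all genes), and tuft cell markers 0 among 20, with 19 positive ones, a median of 0.71 and none at an unadjusted limma p under 0.05. Goblet cell markers gave 0 calls among 12, with 5 positive and 7 negative differences and a median of -0.11. They summed to 55132 to 117344 normalized counts in germ-free libraries and to 611943, 22008, 37435 and 78400 in conventionalized replicates 1 to 4. Conventionalized replicate 1 thus stood apart. It did so for the antimicrobial and barrier list too, at 641360 against 93537 to 144196 in the other conventionalized libraries.

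Chow-fed mice gave further levels of the same sort. Over the 394 genes called higher in germ-free mice, the chow-fed mean of log2 values lay between the conventionalized and germ-free means, nearer the conventionalized one for 172 and nearer the germ-free one for 211. For the rest it lay beyond the germ-free mean for 8 and on the far side of the conventionalized mean for 3. Over the 59 genes called lower it lay between the means and nearer the conventionalized one for 48, between them and nearer the germ-free one for 6, and beyond the conventionalized mean for 5. Genes of the mitosis list lay a median of 26.8% of the way from the conventionalized to the germ-free mean, and ribosomal protein genes 0.6%. The chow-fed libraries were not alike: the enteroendocrine markers summed to 476319, 410079, 1407400 and 885506 normalized counts in chow-fed replicates 1 to 4. Glp1r stood at 144, 52.0, 356 and 134 in those replicates, Cdkn1c at 498, 534, 1992 and 1180, Kif23 at 778, 894, 523 and 547 and Slc28a2 at 304, 249, 279 and 338, so replicate 3 was the highest for Glp1r and Cdkn1c and the lowest for Kif23.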

How the data were processed

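The mRNA libraries were made with a Nextera XT kit after SMARTer Ultra Low Input amplification, per the labels' protocols, and such kits do not mark strand. The submitters' processing notes name STAR, Salmon, DESeq2, Cell Ranger and mm10, with no role or version, and the strain label of the single-cell mice reads C57BL6/2J. The mRNA values are a signal that the authors normalized between libraries before they were deposited. Low values are mostly whole multiples of a single step per library (72% to 78.8% within 0.02 of a whole number in the 8 libraries), which gave the estimated depth. The single-cell matrices hold UMI counts as deposited by the authors.

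Of 48440 entries, 381 with no gene name (0.043% to 0.0804% of a library's values) and those under a mean of 10 were left out. Germ-free and conventionalized libraries were compared in R 4.3.3 by a two-sided linear model per gene (limma 3.58.1, eBayes with trend) on log2(normalized count + 1), which understates the change of low genes. Genes were called at a Benjamini-Hochberg adjusted p under 0.05. Tested on simulated data for this comparison over 20214 genes, the fit recovered 72 of 100 genes changed by 4 on the log2 scale and 31 of 100 changed by 2, with 6 unchanged genes among 109 calls. Positions are from GENCODE M21 on GRCm38, the build named mm10 in the notes.

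Members and lists were chosen with earlier results of these data known. Named genes were the 10 largest called rises and 10 largest called falls without overlap (leaving out enteroendocrine markers, Reg genes, gene models with no proper name, and Chd5, Diras2 and Duox2), and up to 3 called members of a list or, where none was called, its largest and its most abundant member. Genes outside that rule, and the lists of receptors, plasma proteins, gasdermins and secreted inhibitors, were chosen after their values were seen, as were the single-cell gates. Cells were kept with at least 1000 UMIs, 500 genes and under 25% mitochondrial UMIs. Cells whose lymphocyte markers made up at least 1% of their UMIs were left out of the gates, the enterocyte gate needed marker genes at 1% of UMIs, and genes needed 20 UMIs in each set. Ratios were formed after adding 10 CPM to both sides. Plots were drawn with matplotlib 3.10.9.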

Additional observations from a re-analysis of the deposited data

Results flagged for a closer look

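Among 288 groups of 4 libraries over 144 genes, 12 held a library whose gap to the nearest other, divided by the group's range, was above Dixon's 95% critical value; chance gives about 1 group in 20. In conventionalized libraries the highest value stood apart for Dgkh (ratio 0.8532, replicate 3 at 46.57 normalized counts and the next at 18.16) and for Impdh1 (0.8961, replicate 4 at 796.5 and the next at 573.1). Slc28a2 (0.8606) had its lowest conventionalized value in replicate 1, at 396.8 against 600.9. Abcc8 (0.946) had it in replicate 1, at 291.6 against 596.9. Xist (0.8775) had it in replicate 1 as well, at 604.7 against 1342. Ctnnb1 (0.9564) had its lowest conventionalized value in replicate 3, at 5511 against 8173, as did Hspa8 (0.8907), at 27390 against 42840. Apoc3 (0.8369) had it in replicate 2, at 70.06 against 288.4. In germ-free libraries, Bricd5 (ratio 1) was above 0 only in replicate 2, at 2.635. Tnfrsf19 (0.8883), a receptor gene of the Wnt list, was lowest in replicate 3, at 3.472 against 286.6, and Acaa2 (0.903), of fatty acid oxidation, in replicate 3 at 1529 against 4847. The histone gene Hist2h2aa1 (0.9131) was highest in germ-free replicate 1, at 1170 against 577.4.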

How the results depend on the processing

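All adjusted p-values lay between 0.0129 and the threshold, so settings moved the counts of calls far more than the differences. The 394 genes called higher in germ-free and 59 genes called lower in germ-free mice became 839 and 833 with the spread taken from all 4 mRNA groups, 756 and 189 with array weights, and 0 and 0 with no trend. With a mean of at least 50, 91 genes were called lower. Leaving out each library in turn gave 0 to 455 higher and 1 to 229 lower calls. The other settings gave 296 (median-of-ratios factors) to 440 (a pseudocount of 5) higher and 40 to 79 lower calls; the lowest of the latter came from voom on estimated reads, chosen after seeing the data. The cause was not tested in any of these. The 453 differences kept their sign in every setting that tested them; 444 were tested with a mean of at least 50, and 452 each without germ-free replicate 4 and without conventionalized replicate 2. Same-numbered libraries deviated together in only 2 of the 4 pairs at the correlation of 0.1 required of each (0.16, -0.13, 0.40 and 0.01), so the numbers were not taken as pairs, and a fit with the replicate block gave 423 higher and 71 lower calls. Median-of-ratios factors moved the median of all genes from 0.11 to 0.02, quantile normalization to -0.02. The mitosis list had 32 calls with the spread from all groups, 23 with array weights and 0 with no trend. Low genes are limited by depth: in germ-free libraries 1 read was worth 1.06 to 1.56 normalized counts.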
